A study of Mus musculus with 8 samples.

Results

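Retinoic acid is the active form of vitamin A and is made inside cells in successive oxidation steps. Retinol enters cells through the membrane receptor STRA6, retinaldehyde dehydrogenases of the ALDH1A family carry out the last oxidation, and CYP26 enzymes break retinoic acid down. In the cytoplasm it is bound by CRABP1 and CRABP2, and in the nucleus it binds the retinoic acid receptors RARA, RARB and RARG, which pair with retinoid X receptors on DNA. In the mouse embryo, retinoic acid from the mesenchyme and mesothelium is needed for the lung bud to form, and lower retinoic acid signalling in the distal epithelium goes with the later branching.

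The 9 genes described here are Stra6, Aldh1a2, Aldh1a3, Cyp26b1, Crabp1, Crabp2, Rara, Rarb and Rarg, taken by symbol from the 24487 records of each table, with 1 record per gene. They were followed in 8 mouse lung RNA-seq libraries, all of strain C57BL/6 and all labelled as tamoxifen-induced. In translating ribosome affinity purification (TRAP), mRNA is recovered from the ribosomes of a marked cell type, here Sox9 cells of the embryonic lung, by immunoprecipitation of the ribosomal protein L10. At embryonic days 14 and 17 (E14, E17), wild-type TRAP and wild-type whole lung had 1 library each, and at E16 there were 2 TRAP libraries of wild-type and 2 of Sox9-mutant embryos. The Cre driver, the part of Sox9 that is altered and the number of embryos per library are not given in the sources used here. E16 titles name E13 too, with no explanation, and the series design calls the E14 reference a supernatant where its label says whole lung homogenate.

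Sox9 mRNA, read first as a check of the labels, was 35.9 and 36.4 FPKM (fragments per kilobase of a transcript, scaled to the library) in the E16 wild type and 12.8 and 11.03 in the mutant. It was 63.9 and 68.5 FPKM in E14 and E17 TRAP against 15.0 and 16.7 in whole lung. All 10 epithelial markers passed the test as higher in TRAP and all 9 mesenchymal markers tested passed as lower. The mesenchymal sum in TRAP was still 312 FPKM at E14 and 319 at E17, although Vim alone held 226 and 213 of it. Inferred from the deposited confidence bounds, between 9783770 and 21500500 fragments lay behind a library. The deposited FPKM totals ran from 659798 to 1631260, and the short record Mir762 alone held 50.05% of the total of wild-type replicate 1 and 34.0% of that of E17 TRAP. No label says whether replicates were separate animals, and the spread behind each p-value may be technical. In bulk RNA, fewer cells of a type and less RNA per cell cannot be told apart.

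One promoter is shown because its gene, Rarb, passed the test in each of the comparisons below and because Rarb is a known target of its own ligand. Retinoic acid receptors bind direct repeats of a half-site (A or G, then G, then G or T, then TCA) spaced by 5 bases (DR5) or 2 bases (DR2). Both strands of the RefSeq promoter windows (GRCm38.p6, around each transcript start) were searched, and 7 of the 9 genes had a window, 14 windows in all. Crabp2 and Aldh1a3 had no window and were not searched. The Rarb window on the minus strand at chr14:16575427-16575726 held the only DR5 among them, from base -53 to base -37 relative to the start, given in capitals.
Rarb promoter: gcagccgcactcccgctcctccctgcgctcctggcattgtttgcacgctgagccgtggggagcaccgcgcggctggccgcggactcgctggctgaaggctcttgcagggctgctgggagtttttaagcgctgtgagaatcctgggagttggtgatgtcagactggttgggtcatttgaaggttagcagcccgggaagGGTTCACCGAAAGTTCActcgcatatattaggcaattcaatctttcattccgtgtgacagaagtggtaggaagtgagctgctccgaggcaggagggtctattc
A DR5 was present in 32 of 32851 promoter windows (0.0974%) and a DR2 in 88 (0.268%), and none of the 14 windows held a DR2. The deposited values are per gene and do not tell the promoters of Rarb apart, and a match in letters is not a measured site.

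**Figure D1:**
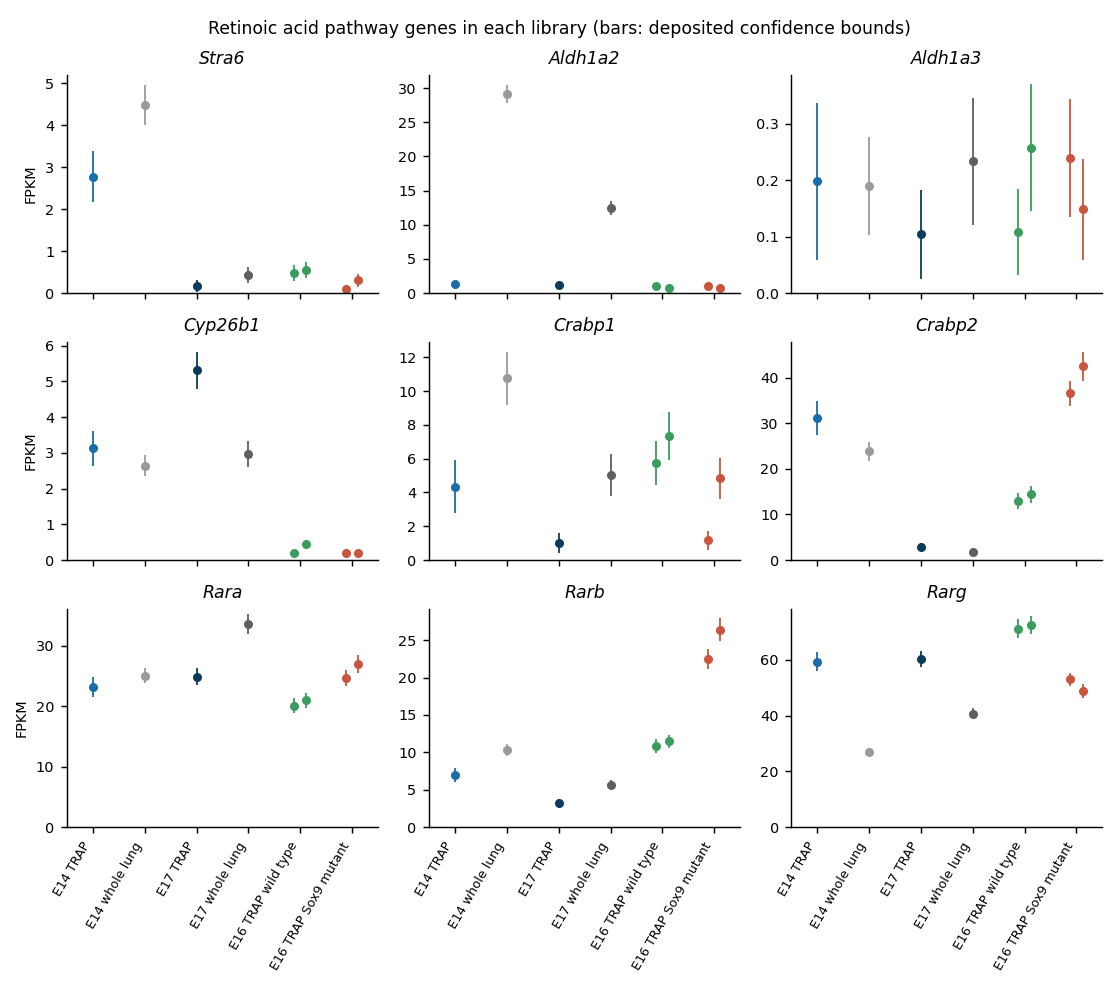
Level of each gene in FPKM (vertical axes, from 0, each panel with its own range) in the 6 groups of libraries (horizontal axis). Each point is 1 library and each bar the deposited confidence bounds. Aldh1a2 stands at 29.1 and 12.4 FPKM in the whole lung libraries and at or below 1.26 FPKM in every TRAP library, and Crabp2 and Rarb are highest in the Sox9-mutant libraries.

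The first comparison asked which of these mRNAs were higher or lower in TRAP of the Sox9 cells than in whole lung. By its label, whole lung includes the Sox9 cells and is not limited to mRNA on ribosomes. Differences of cell type and of ribosome loading therefore cannot be told apart. Aldh1a2, for an enzyme that makes retinoic acid, was far lower in TRAP, Rarg was higher, and Crabp1 and Rarb were lower. Of 12320 records tested (mean of at least 1 FPKM), 23.6% were called higher in TRAP and 17.1% lower, at a Benjamini-Hochberg adjusted p under 0.05 in limma on log2(FPKM + 1). Among the 8 genes of this set that were tested, 1 was called higher and 3 lower, and Aldh1a3 was below the filter. With 1 library per fraction and stage, the p of this comparison measures the disagreement between the stages.

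Aldh1a2 (chromosome 9, 71215789 to 71296243, mm10) encodes the main retinaldehyde dehydrogenase of embryonic mesoderm. Whole lung held 29.1 FPKM at E14 and 12.4 at E17, whereas TRAP held 1.26 and 1.20 FPKM. Both TRAP libraries thus lay far below both whole lung libraries, and the 4 E16 TRAP libraries were lower still, between 0.748 and 1.02 FPKM. The log2 difference was -3.17 (SE 0.28, limma adjusted p = 0.00141), a 9.03-fold difference of FPKM + 1, with -3.74 at E14 and -2.61 at E17. Aldh1a2 stayed lower in TRAP under every alternative run, with log2 differences from -3.85 to -3.13. The mesenchymal markers were lower in TRAP too, with E14 sums of 312 against 1423 FPKM and E17 sums of 319 against 1877 FPKM. Vim alone held 226 against 364 FPKM of these at E14 and 213 against 543 at E17. The median log2 of the 9 tested was -3.22. Lower as well were 5 of the 6 mesothelial markers, whose list summed to 13.4 against 97.5 and 10.6 against 89.6 FPKM. The exception, Msln, was 2.34 FPKM in E14 TRAP against 0.579 and did not pass (log2 0.31). Wt1, Upk1b and Lrrn4 were under 1 FPKM in both TRAP libraries and passed the filter only through whole lung. The count of lower mesothelial markers therefore tests nothing about the list. No mesenchymal marker was at 0 in TRAP, Twist1 being lowest at 0.110 FPKM at E14, and the mesothelial factor Wt1 was 0.601 FPKM in E14 TRAP and 0.214 in E17 TRAP. The part of these cells in the Aldh1a2 level of the TRAP libraries was not tested.

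Aldh1a3, a second retinaldehyde dehydrogenase, lay between 0.104 and 0.257 FPKM in all 8 libraries, on at most 21.0 inferred fragments. No difference between groups was detectable at that depth. Aldh1a1, a further enzyme of the family, was present at 9.69 and 5.76 FPKM in E14 and E17 TRAP and at 4.56 and 10.6 FPKM in whole lung, so its direction turned between the stages (log2 0.08, adjusted p = 0.886). Its close relative Aldh1a7 was called higher in TRAP, at 69.5 and 92.1 FPKM against 32.8 and 70.4 (log2 0.72, adjusted p = 0.0228). Reads of Aldh1a1 and Aldh1a7 could be split between these similar genes in counting, so their separate levels are uncertain, and with common totals Aldh1a7 no longer passed and Aldh1a1 was -0.25.

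Stra6 (chromosome 9, 58129088 to 58153997) was 2.77 FPKM in E14 TRAP against 4.48 in whole lung, and 0.167 against 0.427 at E17. It was lower in TRAP at both stages without passing (log2 -0.41, SE 0.20, adjusted p = 0.157). Cyp26b1 (chromosome 6, 84571414 to 84593908), a retinoic acid hydroxylase, was 3.13 FPKM in E14 TRAP against 2.64, and 5.31 in E17 TRAP against 2.98. Its TRAP values lay above the whole lung values, yet the difference did not pass (log2 0.42, SE 0.19, adjusted p = 0.132). With the E16 wild-type TRAP libraries added, it was -0.56 and did not pass.

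The binding proteins went different ways. Crabp1 (chromosome 9, 54764748 to 54773110) was 4.34 FPKM in E14 TRAP against 10.8 in whole lung and 0.997 in E17 TRAP against 5.05. It was called lower in TRAP (log2 -1.37, SE 0.18, adjusted p = 0.00421), although E14 TRAP was close to E17 whole lung and the call was lost with the E16 wild-type TRAP libraries added (-0.69, adjusted p = 0.338). Crabp2 (chromosome 3, 87948693 to 87953372), whose protein carries retinoic acid to the nuclear receptors, was 31.2 FPKM in E14 TRAP against 23.8 and 2.79 in E17 TRAP against 1.78. It was higher in TRAP at both stages but narrowly missed the threshold (log2 0.41, SE 0.13, adjusted p = 0.0529), and it passed with a pseudocount of 0.1 or with libraries centred on their medians. Within a library, Crabp2 was 7.19 times Crabp1 in E14 TRAP and 2.22 times in whole lung, and at E17 the ratio was 2.79 in TRAP and 0.353 in whole lung.

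Among the receptors, Rarg (chromosome 15, 102234938 to 102257522) was the most abundant in all 8 libraries and the one higher in TRAP. It stood at 59.4 FPKM in E14 TRAP against 27.0 in whole lung and at 60.3 in E17 TRAP against 40.7. The TRAP values did not overlap the whole lung values (log2 0.83, SE 0.15, adjusted p = 0.0101), and with libraries set to a common FPKM total it was 0.45 and did not pass. Rarb (chromosome 14, 16430840 to 17082331) went the other way, with 6.95 FPKM in E14 TRAP against 10.3 and 3.25 in E17 TRAP against 5.66 (log2 -0.58, SE 0.14, adjusted p = 0.0254). The Rarb call depended on the low-value filter and on the libraries used: without the filter its adjusted p was 0.0754, and with the E16 wild-type TRAP libraries, which held 10.9 and 11.5 FPKM, the difference was 0.01. Rara (chromosome 11, 98937696 to 98974942) did not pass, with 23.1 FPKM in E14 TRAP against 24.99 and 24.9 in E17 TRAP against 33.6 (log2 -0.26, adjusted p = 0.135). As a share of the summed FPKM of the 3 receptors, Rarg made up 66.4% and 68.2% in E14 and E17 TRAP against 43.3% and 50.9% in whole lung. With the stages taken as replicates and no stage term, Aldh1a2 alone of the set passed.

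**Figure D2:**
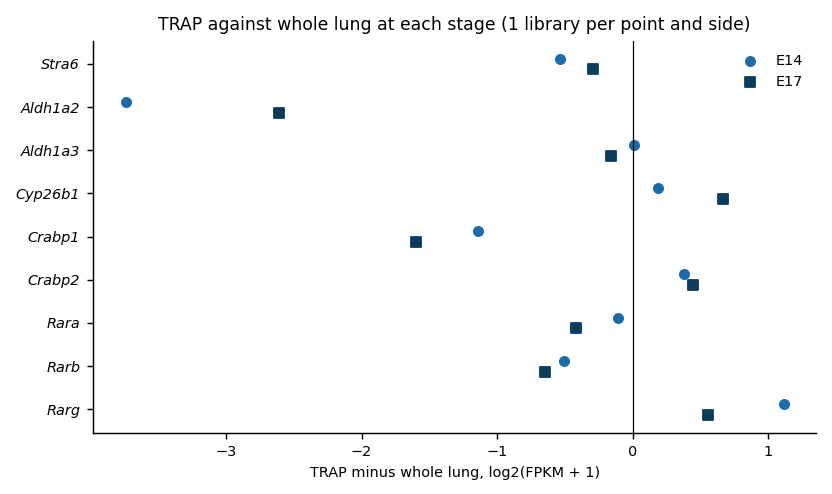
Difference between TRAP and whole lung for each gene on the log2(FPKM + 1) scale (horizontal axis), at E14 (circles) and E17 (squares), each point resting on 1 library per fraction. Aldh1a2 lies farthest below 0 at both stages (-3.74 and -2.61), and Rarg lies above 0 at both (1.11 and 0.56).

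Other genes of the pathway were counted from lists of known function. Of 9 tested genes of retinol uptake, storage and oxidation, 2 were higher in TRAP and 4 lower (median log2 -0.51, against 0.05 over all records). Adh1, an alcohol dehydrogenase, was 8.53 and 29.5 FPKM in TRAP against 96.6 and 501 in whole lung (log2 -3.70, adjusted p = 0.000454). Rdh10, which oxidises retinol to retinaldehyde, was also lower (log2 -1.06, adjusted p = 0.0136), as was the retinol dehydrogenase Rdh11 (-0.57, adjusted p = 0.0307), whereas the short-chain dehydrogenase Dhrs4 was higher (0.56, adjusted p = 0.00843). Of 15 tested genes known to respond to retinoic acid, 1 was higher and 11 were lower (median log2 -1.57). The homeobox genes Hoxa5 (log2 -3.38), Hoxb5 (-3.04) and Hoxb4 (-2.35) and the T-box gene Tbx5 (-2.24) led them, all 4 known from lung mesenchyme, whose markers were lower in TRAP too. Without a stage term 5 of the 15 were called lower. Rarres1, among the lower genes, passed the filter only through whole lung, at 0.129 and 0.272 FPKM in TRAP against 2.40 and 1.87. The count of lower genes therefore describes the list and tests nothing about it. Of 13 tested receptor partners and coregulators, 3 were higher and 1 lower. Fabp5, a fatty acid binding protein that can pass retinoic acid to the receptor PPARD, had the largest difference of them, at 145 and 153 FPKM in TRAP against 72.9 and 65.4 (log2 1.10, adjusted p = 0.00163). The orphan receptor Nr2f6 (log2 0.78) and Rxrb (0.61) were higher as well, while Rxra was lower (-0.61, adjusted p = 0.00762). With common totals, Dhrs4, Fabp5, Nr2f6 and Rxrb no longer passed. Of 3 tested genes of other synthesis and degradation enzymes, 1, Aldh1a7, was higher, and the retinoic acid hydroxylase Cyp2s1 was lower at both stages without passing (log2 -0.96, adjusted p = 0.0611).

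The second comparison asked how these mRNAs changed from E14 to E17, in the same 4 libraries as the first. Crabp2, Stra6, Crabp1 and Rarb were lower at E17 and none of the 9 genes was called higher. Of the 12320 records tested, 9.51% were called higher at E17 and 6.36% lower, against 0 and 4 of the 8 tested genes of this set. The p of the stage term measures the disagreement between the fractions. Stra6 passed the filter only through E14, where it was high, so these counts describe the set and test nothing about it.

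Crabp2 had the largest stage difference of the set. It went from 31.2 to 2.79 FPKM in TRAP and from 23.8 to 1.78 in whole lung, and the E16 wild-type libraries, at 12.9 and 14.4 FPKM, lay between the E14 and E17 TRAP values. The log2 difference was -3.12 (SE 0.13, adjusted p = 0.000935), an 8.71-fold decrease of FPKM + 1, and it passed under every alternative run. Stra6 fell from 2.77 to 0.167 FPKM in TRAP and from 4.48 to 0.427 in whole lung (log2 -1.82, SE 0.20, adjusted p = 0.00979). The lower Stra6 values rest on 6.46 and 21.8 inferred fragments, and the pseudocount of 1 FPKM understates that change. Without the low-value filter its adjusted p was 0.0654.

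Crabp1 fell from 4.34 to 0.997 FPKM in TRAP and from 10.8 to 5.05 in whole lung (log2 -1.19, adjusted p = 0.0203). The E17 whole lung level was above the E14 TRAP level, and the E16 wild-type TRAP levels of 5.73 and 7.35 FPKM were above both other TRAP levels. Rarb fell from 6.95 to 3.25 FPKM in TRAP and from 10.3 to 5.66 in whole lung (log2 -0.83, adjusted p = 0.0251). At E16 it was higher than in either other wild-type TRAP library, and the Crabp1 and Rarb calls were both lost when those libraries were added (adjusted p = 0.343 and 0.453) or when no filter was used (0.0900 and 0.0944). The E16 libraries differ from the others in title as well as in stage, and stage and set of libraries cannot be told apart.

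The remaining receptors did not pass. Rarg was 59.4 and 60.3 FPKM in TRAP and went from 27.0 to 40.7 in whole lung (log2 0.30, adjusted p = 0.225). Rara was 23.1 and 24.9 FPKM in TRAP and went from 24.99 to 33.6 in whole lung (log2 0.26, adjusted p = 0.196), and it was -0.01 with libraries set to a common total. As a share of the 3 receptors, Rarb went from 7.77% to 3.67% in TRAP and from 16.6% to 7.08% in whole lung.

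Of the other pathway genes, 2 of 9 for retinol uptake, storage and oxidation were called higher at E17 and 1 lower (median log2 -0.17, against 0.01 over all records). For other synthesis and degradation enzymes the counts were 1 higher and 0 lower of 3, for partners and coregulators 2 and 1 of 13, and for genes known to respond to retinoic acid 2 and 2 of 15.

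Single libraries carry no test, and here a change of at least 2-fold in FPKM + 1 was counted. In TRAP, 4.75% of 11810 records were at least 2-fold higher at E17 and 1.91% at least 2-fold lower, and the lower ones included Crabp2, Stra6 and Crabp1. In whole lung, 4.83% of 12493 records were higher and 1.3% lower, and the lower ones included Crabp2, Stra6 and Aldh1a2. Aldh1a2 went from 29.1 to 12.4 FPKM in whole lung (log2 -1.17) and was 1.26 and 1.20 FPKM in TRAP (-0.04). Crabp1 in whole lung, at -0.96, lay just short of 2-fold. Whether the stage change differed between the fractions was not tested, since each has 1 library per stage.

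**Figure D3:**
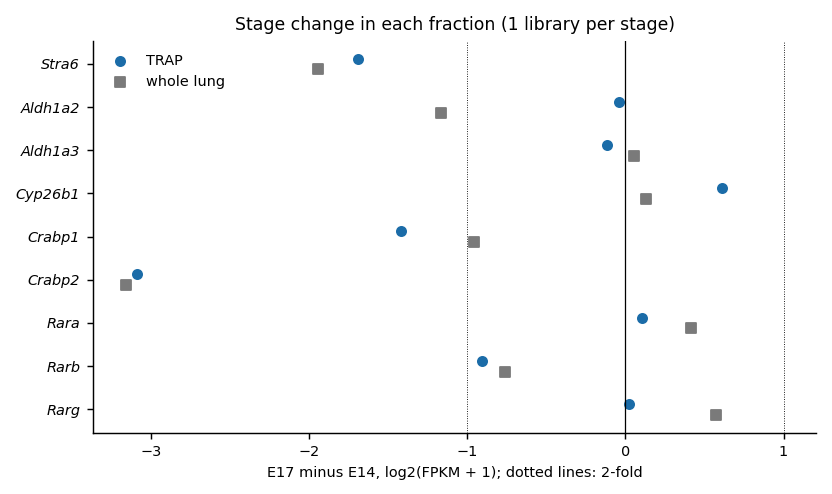
Difference between E17 and E14 for each gene on the log2(FPKM + 1) scale (horizontal axis), in TRAP (circles) and whole lung (squares), each point resting on 1 library per stage, with dotted lines at 2-fold. Crabp2 (-3.09 and -3.16) and Stra6 (-1.69 and -1.94) lie beyond 2-fold in both fractions, and Aldh1a2 in whole lung alone (-1.17 against -0.04).

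Cyp26b1 had a pattern of its own. It was 3.13 FPKM in E14 TRAP and 5.31 in E17 TRAP, but 0.192 and 0.436 in the E16 wild type and 0.203 and 0.201 in the E16 mutant. All 4 E16 libraries were thus below every other library. Counted after this had been seen, 61 of 11844 records (0.515%) had both E16 wild-type values at least 2-fold below both other TRAP values in FPKM + 1. The T-box gene Tbx3 went with it, at 24.1 and 36.7 FPKM in E14 and E17 TRAP and 1.68 and 2.35 in the E16 wild type. Again stage and set of libraries cannot be told apart.

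The third comparison asked which of these mRNAs differed on ribosomes of the labelled cells at E16 when Sox9 was mutated. Crabp2 and Rarb were more than 2-fold higher in the mutant, Rara was slightly higher and Rarg lower. Of 11872 records tested, 17.4% were called higher in the mutant and 14.3% lower. Among the 5 genes of this set that were tested, 3 were higher and 1 was lower, while Aldh1a2, Aldh1a3, Cyp26b1 and Stra6 were below the filter. With libraries set to a common FPKM total, the median of all records moved from 0.01 to 0.41 and none of the 5 passed. That total includes Mir762, which held 50.05% of wild-type replicate 1. With records shorter than 200 bases left out of the rescaling, the median was 0.07. In that setting 2634 records were called higher and 1186 lower, and Crabp2, Rarb and Rarg passed.

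In the wild type Crabp2 stood at 12.9 and 14.4 FPKM, and in the mutant at 36.6 and 42.5, with no overlap. The means were 13.7 ± 1.04 and 39.6 ± 4.16 FPKM (SD, n = 2 each), and the log2 difference was 1.47 (SE 0.09, limma adjusted p = 0.00025), a 2.76-fold increase. The mutant level was also above E14 TRAP, at 31.2 FPKM. With common totals the difference was 1.90 (adjusted p = 0.141), against the shifted median of 0.41. Crabp1 was 5.73 and 7.35 FPKM in wild-type libraries and 1.17 and 4.83 in the mutant, so both mutant values lay below the wild type but far from each other. It did not pass (log2 -1.08, SE 0.44, adjusted p = 0.118), and without mutant replicate 2 it did (-1.79, adjusted p = 0.000502), while without mutant replicate 1 the difference was -0.36 and did not pass.

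Crabp1 is also known from neural crest cells, and its levels in the mutant stood beside those of Sox10, a neural crest factor. Sox10 was 0.359 and 0.608 FPKM in wild-type libraries and 0.0289 and 0.410 in the mutant replicates 1 and 2. The 6 markers of nerve and neural crest summed to 1.72 and 1.91 FPKM in wild-type libraries and 0.938 and 1.70 in the mutant, and none of them reached the filter of the mutant comparison. Their part in the Crabp1 values was not tested. The ratio of Crabp2 to Crabp1 was 2.25 and 1.958 in the wild type and 31.4 and 8.79 in the mutant.

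Mutant libraries held 22.5 and 26.4 FPKM of Rarb, and wild-type libraries 10.9 and 11.5. The means were 11.2 ± 0.420 and 24.5 ± 2.78 FPKM (SD, n = 2 each), the log2 difference was 1.06 (SE 0.09, adjusted p = 0.000686), and the fold was 2.09. The mutant libraries held more Rarb than any other library of the series, whole lung included. With common totals the difference was 1.49 (adjusted p = 0.499). Rarb is the gene whose promoter with a DR5 is shown above, and the part of that sequence in the Rarb levels was not tested.

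Rarg went down, from 71.2 and 72.5 FPKM in the wild type to 53.0 and 48.8 in the mutant (log2 -0.49, SE 0.06, adjusted p = 0.00209), a 1.40-fold difference. Rescaled to common totals it was -0.04, below the shifted median of 0.41. Rara rose slightly, from 20.03 and 21.0 FPKM to 24.7 and 27.0 (log2 0.32, SE 0.07, adjusted p = 0.0165). The Rara call was lost without wild-type replicate 1 (0.28, adjusted p = 0.0939) or without wild-type replicate 2 (0.35, adjusted p = 0.0667). Ratios within a library do not depend on its scaling. Rarb over Rara was 0.543 and 0.547 in the wild type and 0.913 and 0.981 in the mutant, and Rarg over Rara was 3.55 and 3.45 against 2.15 and 1.81.

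The summed level of the 3 receptors was 102 and 105 FPKM in wild-type libraries and 100.1 and 102 in the mutant, while its make-up differed. Rarb was 10.7% and 10.9% of it in the wild type and 22.5% and 25.9% in the mutant, and Rarg was 69.7% and 69.1% against 52.9% and 47.8%. The Rarg share of the mutant was near that of whole lung at E17, whereas its Rarb share was above that of every whole lung library.

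**Figure D4:**
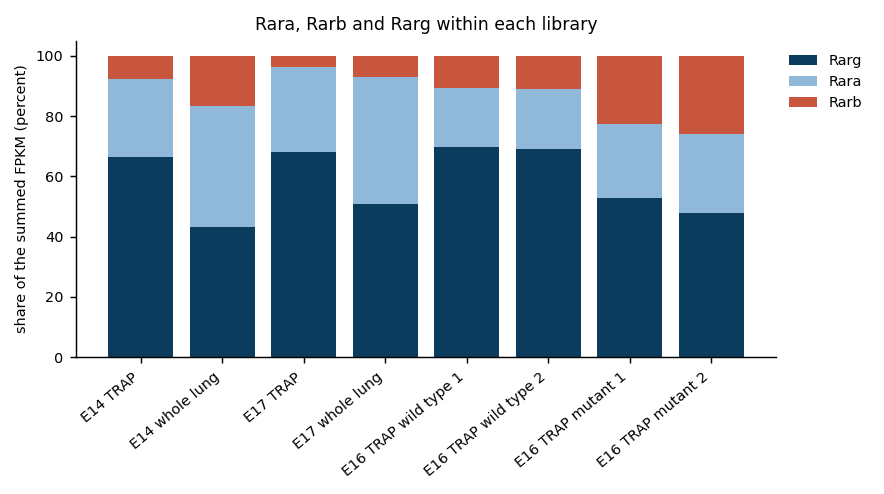
Share of Rara, Rarb and Rarg in their summed FPKM (vertical axis, percent, from 0) in each of the 8 libraries, 1 stacked bar per library. Rarb takes 22.5% and 25.9% in the mutant libraries and at most 16.6% in any other.

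The 4 genes under the filter were low in both genotypes. Stra6 was 0.469 and 0.557 FPKM in wild-type libraries and 0.0884 and 0.301 in the mutant, on 4.27 to 33.6 inferred fragments, so the mutant values lay below the wild type at low depth. Aldh1a2 was 0.957 and 0.777 FPKM against 1.02 and 0.748, and Cyp26b1 and Aldh1a3 were below 0.5 FPKM in all 4 libraries, with overlapping groups in each case.

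Markers of other epithelial states moved in the same comparison. The 6 proximal airway markers summed to 446 and 440 FPKM in wild-type libraries and 1581 and 1792 in the mutant, and 5 of the 6 were called higher. Of these, Trp63 passed the filter only through the mutant, at 1.76 and 2.46 FPKM against 0.166 and 0.204. The 6 distal tip markers summed to 874 and 853 FPKM against 272 in each mutant library. Of the 6, 4 were called lower, including Sox9, the mutated gene itself, whose fall is no separate result. Etv4 was the 1 called higher (17.6 and 13.9 against 33.4 and 32.1 FPKM, log2 1.02, adjusted p = 0.00155). The mesenchymal sum was 274 and 344 against 176 and 234 FPKM, of which Vim alone held 168 and 199 against 105 and 98.9. Of the 10 mesenchymal markers tested, 1 was called higher, 2 lower and 7 neither way. The mesothelial sum was 7.71 and 10.6 against 17.6 and 18.0 FPKM. Msln alone carried the higher mesothelial sum, at 0.851 and 0.694 FPKM in wild-type libraries and 13.1 and 11.2 in the mutant, whereas Nkain4 and Lrrn4 lay below the wild type and Wt1, Upk3b and Upk1b overlapped. Their part in the Crabp2, Rarb, Rara and Rarg values was not tested.

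In the pathway around these genes, 5 of 9 tested genes of retinol uptake, storage and oxidation were higher in the mutant and 2 lower (median log2 0.22, against 0.01 over all records). Dhrs3, which reduces retinaldehyde back to retinol and is induced by retinoic acid, was 9.42 and 9.58 FPKM in wild-type libraries and 27.5 and 28.3 in the mutant (log2 1.46, SE 0.06, adjusted p = 6.9e-05). Rbp4, a carrier of retinol in blood (log2 0.77), Rdh10 (0.44), the retinol saturase Retsat (0.50) and Dhrs4 (0.22) were higher, and Rdh11 was lower (-0.34). For each of these smaller changes the mutant values did not overlap the wild-type values. The genes were named for passing the test on the same libraries, so the lack of overlap adds no support. The calls of these genes were lost in some fits that left out a library, with 1 library left in a group. Rbp4 lost its call without wild-type replicate 2 (adjusted p = 0.144) or mutant replicate 2, Rdh10 without wild-type replicate 1 (0.0651), Retsat without either wild-type library or mutant replicate 1 (up to 0.0842), Dhrs4 without either wild-type library or mutant replicate 2 (up to 0.134), and Rdh11 without either mutant library or wild-type replicate 2 (up to 0.127).

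Of 3 tested genes of other synthesis and degradation enzymes, 2 were higher (median log2 0.70). Cyp2s1 was 2.49 and 1.84 FPKM in wild-type libraries and 24.1 and 22.1 in the mutant (log2 2.94, SE 0.11, adjusted p = 7.1e-05). Aldh1a7 was 156 and 132 FPKM against 221 and 249 (log2 0.70, adjusted p = 0.00396), with the same limit on reads shared with Aldh1a1. Of 13 receptor partners and coregulators, 4 were higher and 1 lower (median log2 0.13). Fabp5 was 126 and 120 FPKM in wild-type libraries and 397 and 475 in the mutant (log2 1.81, SE 0.09, adjusted p = 0.000139), and its partner Ppard was 28.1 and 24.6 against 39.4 and 41.2 FPKM (0.60, adjusted p = 0.00286). The orphan receptor Nr2f2 (log2 0.85) and the coactivator Ncoa1 (0.34) were also higher, and Rxrb was lower (-0.22). Ncoa1 lost its call without any 1 of the 4 libraries (adjusted p up to 0.105) and Rxrb without either wild-type library (up to 0.146). With common totals Cyp2s1 alone of all listed pathway genes still passed, and Rdh11 (0.06) and Rxrb (0.23) changed sign.

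Of 14 tested genes known to respond to retinoic acid, 3 were higher and 2 lower, with a median log2 of -0.09. Over all records tested, 17.4% were called higher and 14.3% lower, so these counts tell nothing particular to the list. The 3 higher genes of the list were Dhrs3, the zinc finger gene Zfp703 (log2 1.36, adjusted p = 0.00061) and the early growth response gene Egr1 (0.48, adjusted p = 0.00844). The Egr1 call was lost without wild-type replicate 2. Among the lower ones was the transglutaminase Tgm2, at 32.6 and 31.5 FPKM against 15.1 and 17.1 (log2 -0.96, adjusted p = 0.000517). Genes of this list went in both directions in the mutant, as did the records as a whole. Rarb and Crabp2, also known to respond to retinoic acid, were counted with the members and not here.

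**Figure D5:**
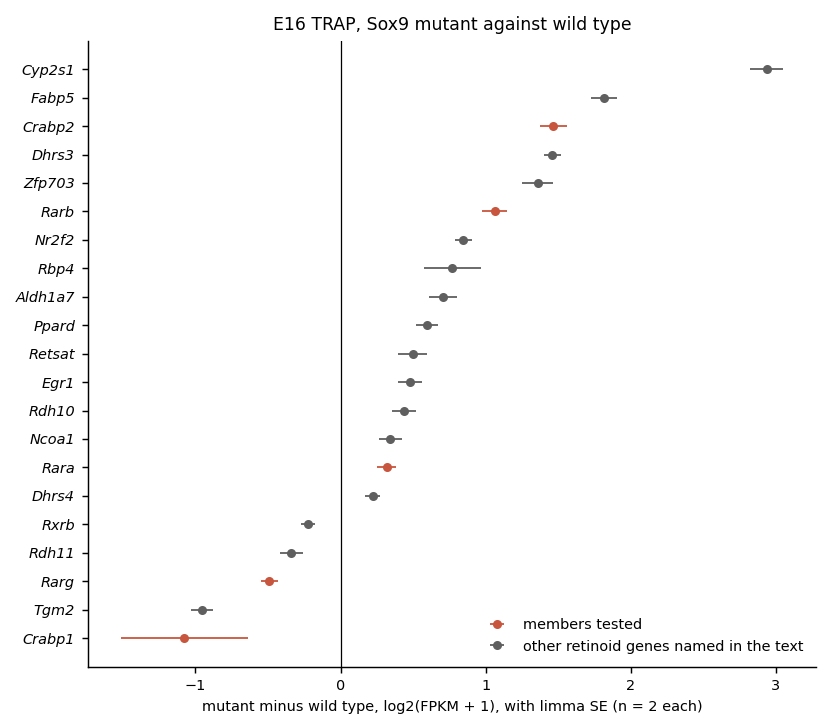
Difference between Sox9 mutant and wild type in E16 TRAP on the log2(FPKM + 1) scale (horizontal axis) with the limma standard error, n = 2 libraries each, for the 5 tested members (red) and the other retinoid genes named in the text (grey). Crabp2 (1.47) lies near Dhrs3 (1.46), Rarb (1.06) lies between them and 0, Rarg (-0.49) lies below 0, and the bar of Crabp1 is the widest.

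The genes most like each member over the 8 libraries were found by Pearson correlation of log2(FPKM + 1), as a description of points that share stages, fractions and genotypes. Rarb was most like Gfra1, which encodes a GDNF receptor (0.98), followed by Uhmk1 and Bmpr1b. Crabp2 was most like Sesn3 (0.96), followed by Acvr2b and Cgnl1. Rarg was most like the small proteoglycan gene Fmod (0.99), followed by Asah1 and Mrpl23, and Rara like Tmem109 (0.98), with B3gnt8 also among its nearest. Crabp1 was most like Rspo1 (0.95), which encodes an activator of WNT signalling, followed by Tnfrsf19 and Bai2. Aldh1a2 was most like Nrg2, Mmrn1 and Runx1t1, at 0.996, 0.996 and 0.995, Stra6 like Mn1 (0.98), Ptbp2 and Zik1, and Cyp26b1 like Tbx3 (0.99), Nfib and Gng8. Gfra1 was 3.82 and 3.30 FPKM in wild-type libraries and 7.71 and 9.39 in the mutant, and 2.90 and 0.972 FPKM in E14 and E17 TRAP, the same order of these groups as Rarb.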

How the data were processed

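The authors deposited 1 table per library with FPKM values and their confidence bounds for each record, per the file headers. The submitters' processing notes name mm10, Bowtie2 2.2.3, TopHat2 2.0.14, Cuffnorm and Cufflinks 2.2.1. No source used here gives the library total behind FPKM, the annotation or the use of strand, and no further scaling was applied. Fragments were inferred from the distance of a value to its upper bound, read as 2 standard errors, and cover counting error only.

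Each fit ran in limma 3.58.1 (R 4.3.3) on log2(FPKM + 1) over all records averaging at least 1 FPKM, with trended eBayes, two-sided p and Benjamini-Hochberg adjustment at 0.05. The mutant fit had 2 residual degrees of freedom (3.73 prior). The TRAP and stage fit, with both as additive terms, had 1 (4.47 prior). The pseudocount of 1 makes changes of low genes look smaller. The fits were also run on simulated fragments with known changes, little spread beyond counting error and no disagreement between stages or fractions. That run cannot tell how well the TRAP and stage p-values hold, since they rest on such disagreement. The members and lists were chosen with earlier results of these data known. Named genes were all members, every list gene called in the mutant, and in TRAP the 4 per list with the smallest p, and some genes that this rule names are not reported here.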

Additional observations from a re-analysis of the deposited data

How the results depend on the processing

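The Aldh1a2 difference in TRAP and the Crabp2 stage difference passed under every alternative run, and the Crabp2 and Rarb differences in the mutant under all but rescaling to a common total. With common totals the median over all records became 0.41 in the mutant, -0.29 in TRAP and -0.23 between stages. This left 0 members higher and 0 lower in the mutant, with 225 records called against 3755 as deposited, 0 members higher in TRAP, and 1125 records called between stages against 1955. It turned Rdh11 (0.056) and Rxrb (0.23) in the mutant, Aldh1a1 in TRAP (-0.25) and Rara between stages (-0.0070), and Aldh1a2 then passed between stages (-0.76, adjusted p = 0.0385). The share of calls that were higher was 54.9% in the mutant, 58.0% in TRAP and 59.9% between stages. It was 74.2%, 16.04% and 46.0% with common totals, 69.0%, 48.8% and 44.8% with records shorter than 200 bases removed before the rescaling, and 42.8%, 62.2% and 54.7% with libraries centred on their medians.

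Leaving out 1 E16 library gave between 1888 and 3436 records called, and between 1 and 2 members lower, the 2 without mutant replicate 2. With 1 library left in a group, that library is assumed to vary like the others. With replicate number as a block, 2 members were lower, since Crabp1 passed (adjusted p = 0.0292), and 3503 records were called. The main fit had no block because the labels do not say that a replicate number marks an animal, litter or day. Same-numbered libraries did not deviate together (r = 0.007 over 11872 records). In TRAP, 2 members were higher with a pseudocount of 0.1 and 2 with centring. Without a stage term 0 were higher and 1 lower, with 574 records called against 5015. With the E16 wild type added, Rarb was 0.0070 and Cyp26b1 -0.56 in TRAP, Stra6 passed as lower (adjusted p = 0.0393), and between stages 2 members were lower with 729 records called. With no low-value filter, 1 member and 52 records were called between stages, the member being lower. Apart from the rescaling and leaving out libraries, the cause of these changes was not tested. Depth limits Aldh1a3, Stra6 at E16 and E17, and Cyp26b1 at E16.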
